A study of Mus musculus with 50 samples.

Results

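Messenger RNA from mouse frontal cortex was examined for 10 genes of the cerebral blood vessel wall, 8 of endothelial cells (*Cldn5*, *Pecam1*, *Slc2a1*, *Abcb1a*, *Mfsd2a*, *Flt1*, *Kdr* and *Slco1c1*) and 2 of pericytes (*Pdgfrb* and *Rgs5*). They were taken by symbol from a fixed list, through the gene identifiers of the GENCODE vM21 annotation, and all 10 were among the 16330 protein-coding genes that had enough counts to be tested. The study asked how loss of 1 copy of *Setd1a*, which encodes a histone H3 lysine 4 methyltransferase, alters the cortex during development. It sequenced 50 libraries, 5 wild-type and 5 *Setd1a*+/- at each of embryonic days 14 and 18 (E14 and E18) and postnatal days 7, 35 and 70 (P7, P35 and P70). *Setd1a*+/- mice carried 1 copy of the tm1d loss-of-function allele in every tissue, blood vessels included, so these libraries cannot place an effect in any cell type. The labels give the strain of every mouse as C57BL/6NTac, whereas the methods describe a mixed C57BL/6NTac and C57BL/6J background and place the embryonic ages slightly later. By the methods all were male offspring of heterozygous males and wild-type females, and the embryonic tissue was frontal brain region rather than cortex alone. The methods describe no treatment. The RNA came from a homogenate of all cells of the tissue, in which vessel cells were not isolated, and each library stands for 1 mouse.

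Brain capillaries differ from those of most organs in that their endothelial cells are sealed by tight junctions and let little vesicle traffic through. These cells carry nutrients and hormones across by dedicated transporters. Vascular endothelial growth factor (VEGF) made by neural cells draws vessels into the cortex, Wnt ligands of the same cells switch on barrier genes in the endothelium, and pericytes recruited by endothelial platelet-derived growth factor cover the new capillaries. The vessels of the cortex form in the embryo and go on branching after birth while the barrier transporters mature. In whole tissue, fewer vessel cells and less RNA per vessel cell cannot be told apart, and the same holds for how much of the meninges, which are rich in vessels, came away with the cortex at dissection.

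Total counts ranged from 35507165 to 43907318 per library, and every one of the 10 genes had at least 117 counts in each library. The spread between libraries holds counting error as well as differences between mice, and their shares were not separated. *Xist* had 60159 counts in replicate 5 of the wild-type E14 group and 55644 in replicate 2 of the wild-type E18 group, but at most 27 in the other 48 libraries, although the methods describe male mice. The *Setd1a* gene itself could not serve as a check of the labels, because its count over all exons was 0.10 higher on the log2 scale in *Setd1a*+/- libraries (SE 0.025, adjusted p = 0.00679, edgeR). Wild-type replicate 2 at P7 stood apart in choroid plexus genes, with a summed level of 644 CPM (counts scaled to library size) against 4.73 to 7.52 in the other 9 libraries of its age, and also in neuronal genes (2755 CPM against 3767 to 4167) and astrocyte genes (2238 CPM against 1606 to 1851), but its summed level of the 10 vessel genes, 477 CPM, lay within their range of 465 to 548. *Setd1a*+/- replicate 2 at E14 stood apart in the vessel genes themselves. It was also the lowest library of its age for 3814 of the 16330 genes tested and the highest for 2388.

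The genes lie on 7 chromosomes of the GRCm38 genome. *Flt1* (chr5:147561604-147726011, minus strand), *Kdr* (chr5:75932827-75978458, minus strand) and *Abcb1a* (chr5:8660077-8748575, plus strand) share chromosome 5, and *Slc2a1* (chr4:119108711-119137983, plus strand) and *Mfsd2a* (chr4:122946850-122961188, minus strand) share chromosome 4. *Cldn5* (chr16:18776847-18778262, plus strand), *Pecam1* (chr11:106654217-106750628, minus strand), *Slco1c1* (chr6:141524368-141570177, plus strand), *Rgs5* (chr1:169655501-169695813, plus strand) and *Pdgfrb*, whose position is given with its values, each lie on a chromosome of their own. Annotated exonic length ran from 1416 bases in *Cldn5* to 13504 bases in *Flt1*. Fragments on exonic bases shared with another annotated gene were counted for both genes, which touches 10.1% of *Abcb1a* (shared with *Gm42686*) and 2.99% of *Slc2a1* (shared with *Gm12868*). *Abcb1a* has a closely related paralogue, *Abcb1b*, and whether reads of the pair were fully separated was not tested.

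Sequence upstream of the start site was available in the RefSeq promoter table (GRCm38.p6) for 8 of the 10 genes, and the 250 bases before the start were searched for GGAA or its reverse complement TTCC, the core bound by ETS factors such as *Erg* and *Fli1* that are known for endothelial expression. The window of *Abcb1a* lies far upstream of the gene start in GENCODE and was not used. The 4 windows below belong to 3 genes whose levels moved together between libraries (*Cldn5*, *Kdr* and *Rgs5*) and to *Mfsd2a*, which moved least with the others. Capitals mark each GGAA or TTCC.
Cldn5: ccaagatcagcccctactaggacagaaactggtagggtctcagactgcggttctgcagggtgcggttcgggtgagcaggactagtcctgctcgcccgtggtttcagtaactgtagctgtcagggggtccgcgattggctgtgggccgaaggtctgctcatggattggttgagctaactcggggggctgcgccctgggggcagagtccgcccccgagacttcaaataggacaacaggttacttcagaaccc
Kdr: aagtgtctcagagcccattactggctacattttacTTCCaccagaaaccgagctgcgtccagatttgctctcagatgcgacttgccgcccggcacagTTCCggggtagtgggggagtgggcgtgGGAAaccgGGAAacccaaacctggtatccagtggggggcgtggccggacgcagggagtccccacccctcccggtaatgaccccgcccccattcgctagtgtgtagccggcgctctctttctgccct
Rgs5: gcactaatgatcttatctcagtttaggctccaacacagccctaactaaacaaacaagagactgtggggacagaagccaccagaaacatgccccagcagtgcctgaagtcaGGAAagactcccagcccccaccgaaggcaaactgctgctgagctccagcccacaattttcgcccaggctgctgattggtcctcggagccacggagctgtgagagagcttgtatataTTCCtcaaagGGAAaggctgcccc
Mfsd2a: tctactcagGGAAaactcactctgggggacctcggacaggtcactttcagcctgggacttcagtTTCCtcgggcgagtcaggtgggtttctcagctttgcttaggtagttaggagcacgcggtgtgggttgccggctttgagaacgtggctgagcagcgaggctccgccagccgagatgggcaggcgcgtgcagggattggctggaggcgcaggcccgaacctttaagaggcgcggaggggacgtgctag

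The *Cldn5* window (chr16:18776597-18776846, plus strand) held 0 matches, the *Kdr* window (chr5:75978456-75978705, minus strand) 4, the *Rgs5* window (chr1:169655251-169655500, plus strand) 3 and the *Mfsd2a* window (chr4:122961189-122961438, minus strand) 2. Of all 32851 windows of this length in the table, 93.4% held at least 1 match and the median was 3, so most windows hold these 4 letters. The windows of *Flt1*, *Slco1c1* and *Slc2a1* held 4, 8 and 0 matches. Base composition differed more between the genes, with 23 CG pairs in the *Flt1* window, 17 in *Mfsd2a*, 16 in *Kdr*, 12 in *Cldn5*, 4 in *Rgs5* and 0 in *Slco1c1*, against a median of 6 over all windows. The motif GGGCGG, on either strand, was found in the windows of *Flt1*, *Kdr*, *Slc2a1* and *Cldn5* (3, 2, 2 and 1 matches) and in 32.7% of all windows.

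Ordered by level per exonic length (RPKM, fragments scaled to library size and exonic length, median of the 10 libraries of an age), *Cldn5* was the most abundant of the 10 transcripts at each age, with 25.7 RPKM in E14 libraries, 41.3 in E18 libraries and 60.7 at P7, and with 36.3 and 38.9 RPKM in the P35 and P70 libraries. Its range overlapped that of the next gene, *Slc2a1*, at E14, P35 and P70, but not that of the next gene at E18 or P7. *Rgs5* was the more abundant of the 2 pericyte genes throughout, from 11.2 RPKM at E14 to 28.01 at P7, where *Pdgfrb* had 4.81 and 5.89. At the bottom of the order stood *Abcb1a* at E14 and E18 (0.794 and 1.74 RPKM), *Abcb1a* and *Flt1* together at P7 (2.64 RPKM each), and *Kdr* at P35 and P70 (2.98 and 2.07 RPKM). At E14, where 1 library widened every range, all 9 neighbours in the order overlapped. At P7 the order had 5 steps without overlap, below *Cldn5*, *Rgs5*, *Slc2a1*, *Kdr* and *Pecam1*, and at P70 it had 2, below *Rgs5* and *Flt1*.

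**Figure D1:**
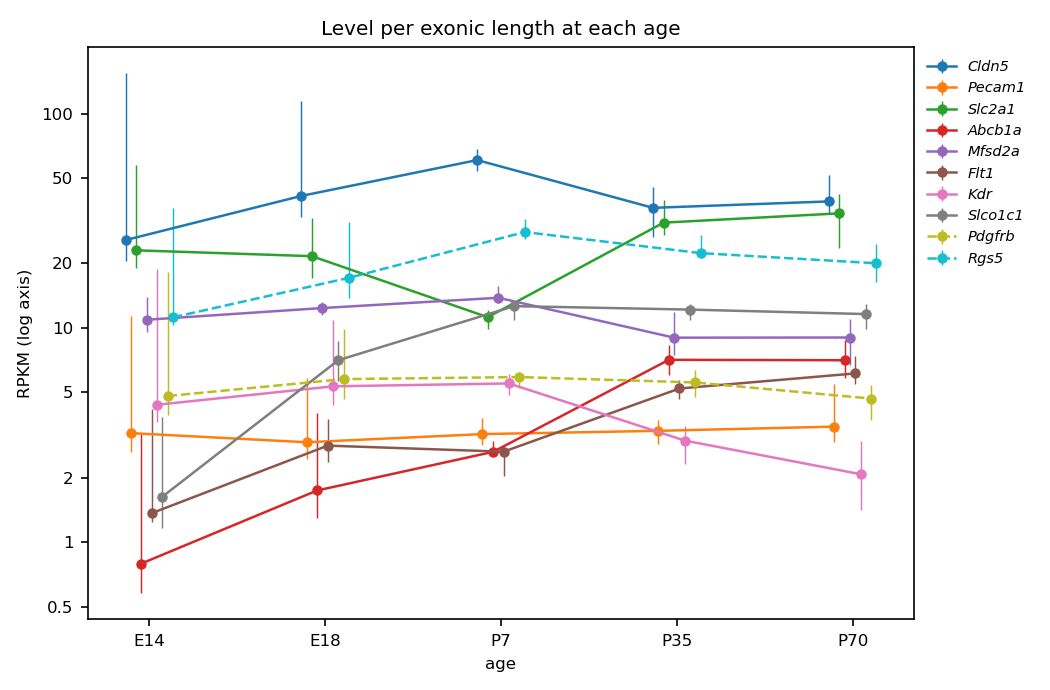
Level per exonic length (RPKM, log axis) of each gene at the 5 ages. Points are medians of the 10 libraries of both genotypes, vertical lines run from the lowest to the highest library, and dashed lines mark the 2 pericyte genes. *Cldn5* is highest at each age, *Slc2a1* dips to 11.2 RPKM at P7, and *Abcb1a* climbs from 0.794 to 7.06 while *Kdr* ends lowest at 2.07.

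Levels of 1 gene across libraries are given below in CPM after TMM scaling. Differences between neighbouring ages were tested with edgeR over both genotypes and are given as log2 fold changes with their standard error and the adjusted p over all 16330 genes. Of these genes, 73.4% were called at an adjusted p under 0.05 from E14 to E18, 76.1% from E18 to P7, 76.1% from P7 to P35 and 9.74% from P35 to P70. Beside these, 4, 5, 7 and 0 of the 10 vessel genes were called with all 50 libraries, and 8, 6, 7 and 2 without *Setd1a*+/- replicate 2 at E14.

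*Cldn5* encodes claudin-5, the main tight junction protein of brain endothelium. In wild-type libraries at E14 it stood at 35.97, 38.5, 36.8, 33.0 and 44.0 CPM in replicates 1 to 5, and in *Setd1a*+/- libraries at 33.6, 219, 32.2, 65.5 and 29.2 CPM. *Setd1a*+/- replicate 2 was thus over 3 times the next highest library and the other 4 mutant libraries straddled the wild-type values. At E18 the wild-type libraries held 96.9, 59.1, 161.5, 115 and 60.8 CPM and the *Setd1a*+/- libraries 50.2, 46.6, 55.4, 57.8 and 50.7 CPM. All 5 mutant libraries lay below all 5 wild-type libraries there, though the lowest wild-type library (59.1 CPM) stood close to the highest mutant library (57.8 CPM). From P7 on, the groups overlapped, with 76.2 to 96.5 CPM over the 10 libraries at P7, 37.5 to 64.0 at P35 and 48.1 to 73.0 at P70. *Cldn5* fell from P7 to P35 by 0.72 on the log2 scale (SE 0.214, adjusted p = 0.00256, edgeR), and its step from E14 to E18 (0.42, SE 0.214, adjusted p = 0.0716) was not called.

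*Pecam1*, which encodes an adhesion molecule at endothelial cell borders found in vessels of all organs, was called in no age step over both genotypes. Its E14 levels were 18.03, 16.7, 21.2, 16.3 and 25.6 CPM in wild-type and 19.1, 70.6, 18.001, 33.3 and 21.1 CPM in *Setd1a*+/- libraries. At E18 the wild-type libraries had 24.6, 18.1, 36.2, 29.9 and 18.5 CPM and the *Setd1a*+/- libraries 17.3, 15.2, 15.2, 18.3 and 17.9 CPM. Wild-type replicates 1, 3 and 4 were high, as for *Cldn5*, whereas replicates 2 and 5 lay beside the highest mutant libraries. Between P7 and P70 the libraries ranged from 17.6 to 33.9 CPM, and none of the 4 age steps was called (log2 fold changes of -0.28, -0.04, 0.05 and 0.11).

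Of the 4 transporter genes, *Slco1c1* and *Abcb1a* rose over development, whereas *Slc2a1* passed through a trough at P7 and *Mfsd2a* through a peak. *Slco1c1* encodes the thyroid hormone carrier Oatp1c1, and its 10 libraries ranged from 6.06 to 19.9 CPM at E14, 29.4 to 45.1 at E18, 56.2 to 69.4 at P7, 56.5 to 67.2 at P35 and 51.5 to 66.9 at P70. The ranges at E14, E18 and P7 did not overlap. It rose by 1.93 on the log2 scale from E14 to E18 (SE 0.112, adjusted p = 1.70e-19, edgeR) and by 0.82 from E18 to P7 (SE 0.105, adjusted p = 2.07e-09), and its later steps of -0.04 and -0.07 were not called.

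*Abcb1a* encodes P-glycoprotein, the efflux pump that returns drugs and other lipophilic compounds to the blood. At E14 it had 4.49, 4.55, 4.21, 3.17 and 4.51 CPM in wild-type and 3.91, 17.5, 3.68, 6.32 and 3.87 CPM in *Setd1a*+/- libraries. At E18 it had 14.6, 8.25, 21.9, 17.8 and 8.44 CPM in wild-type and 9.33, 7.12, 9.81, 9.76 and 8.51 CPM in *Setd1a*+/- libraries. The mutant values again lay among the 2 low wild-type libraries and under the 3 high ones. The gene ranged from 13.98 to 16.2 CPM at P7, from 33.0 to 45.5 at P35 and from 31.9 to 48.0 at P70. It rose from E14 to E18 (log2 fold change 1.05, SE 0.179, adjusted p = 1.37e-06, edgeR), slightly from E18 to P7 (0.39, SE 0.171, adjusted p = 0.0369) and again from P7 to P35 (1.39, SE 0.169, adjusted p = 7.08e-10), for a difference of 2.83 between P70 and E14, the largest of the 10 genes.

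*Slc2a1*, which encodes the glucose transporter Glut1 of brain endothelium and also of astrocytes, went the other way around birth. Its E14 levels were 73.4, 67.0, 81.9, 73.4 and 101 CPM in wild-type and 82.0, 203, 66.4, 112 and 79.5 CPM in *Setd1a*+/- libraries, and its E18 levels ranged from 60.1 to 114 CPM. At P7 the 10 libraries held only 34.6 to 42.6 CPM, below every library of every other age. The fall from E18 to P7 was 1.06 (log2 fold change -1.06, SE 0.130, adjusted p = 7.52e-10, edgeR), and the rise from P7 to P35 was 1.51 (SE 0.131, adjusted p = 3.66e-14). At P35 and P70 the libraries ranged from 82.9 to 148 CPM.

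*Mfsd2a* encodes the carrier of docosahexaenoic acid in lysophospholipid form, and it is known for restraining vesicle traffic through brain endothelium. Its levels were the narrowest of the group before birth, 23.7, 26.4, 27.5, 21.5 and 23.5 CPM in wild-type and 25.4, 31.4, 22.5, 26.7 and 22.4 CPM in *Setd1a*+/- libraries at E14, and 25.9 to 29.6 CPM over all 10 libraries at E18. It rose by 0.19 from E18 to P7 (SE 0.0771, adjusted p = 0.0278, edgeR), where it held 29.5 to 35.2 CPM, and fell by 0.56 from P7 to P35 (SE 0.0778, adjusted p = 1.71e-08) to 16.8 to 26.6 CPM.

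The 2 VEGF receptors moved in opposite directions after birth. *Kdr* encodes VEGF receptor 2, which carries the growth signal in sprouting vessels, and *Flt1* encodes VEGF receptor 1, which binds VEGF tightly but signals weakly. *Kdr* at E14 had 32.9, 37.1, 43.7, 35.3 and 55.8 CPM in wild-type and 37.9, 170.1, 33.8, 72.5 and 41.1 CPM in *Setd1a*+/- libraries. At E18 it had 68.7, 48.5, 92.2, 98.2 and 47.5 CPM in wild-type and 44.9, 39.6, 43.3, 58.3 and 47.8 CPM in *Setd1a*+/- libraries. The 3 high wild-type libraries stood above all mutant libraries, and the other 2 lay within the mutant range. *Kdr* fell from 43.9 to 54.9 CPM at P7 to 20.95 to 31.4 at P35 (log2 fold change -0.89, SE 0.180, adjusted p = 2.49e-05, edgeR) and held 12.7 to 26.8 CPM at P70.

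*Flt1* at E14 stood at 18.6, 16.7, 17.9, 16.8 and 17.6 CPM in wild-type and 18.5, 56.4, 18.4, 22.2 and 18.9 CPM in *Setd1a*+/- libraries. Its E18 groups overlapped widely, with 33.1 to 50.4 CPM in wild-type and 31.8 to 50.7 in *Setd1a*+/- libraries. *Flt1* rose from E14 to E18 (log2 fold change 0.87, SE 0.126, adjusted p = 4.36e-08, edgeR) and from P7 to P35 (1.03, SE 0.124, adjusted p = 5.20e-10), reaching 73.8 to 100.1 CPM at P70. In RPKM, *Kdr* stood above *Flt1* at E14, E18 and P7 (4.37 against 1.36, 5.33 against 2.82 and 5.501 against 2.64) and below it at P35 and P70 (2.98 against 5.21 and 2.07 against 6.13).

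The pericyte genes differed from each other over age. *Pdgfrb* (chr18:61045150-61085061, plus strand) encodes the receptor through which pericytes are recruited, which fibroblasts also carry. It had 22.5, 25.6, 31.0, 24.1 and 29.5 CPM in wild-type and 21.4, 99.9, 24.3, 38.7 and 27.04 CPM in *Setd1a*+/- libraries at E14. At E18 it had 39.4, 27.7, 54.0, 49.97 and 29.7 CPM in wild-type and 34.8, 25.5, 29.5, 33.5 and 29.0 CPM in *Setd1a*+/- libraries, with the same 3 wild-type libraries high. It ranged from 20.3 to 34.97 CPM after birth, and none of its 4 age steps was called with all libraries, whereas the first was called without *Setd1a*+/- replicate 2 at E14 (0.36, adjusted p = 0.00134, edgeR). *Rgs5*, a regulator of G protein signalling used as a marker of pericytes and vascular smooth muscle, had 48.5, 52.1, 50.2, 47.0 and 50.1 CPM in wild-type and 47.6, 165, 53.9, 67.6 and 51.7 CPM in *Setd1a*+/- libraries at E14. At E18 it had 100.3, 73.7, 141, 132.2 and 76.2 CPM in wild-type and 79.4, 62.4, 69.9, 86.4 and 69.3 CPM in *Setd1a*+/- libraries, so that 2 wild-type libraries again lay within the mutant range. *Rgs5* rose from E14 to E18 over both genotypes (log2 fold change 0.50, SE 0.132, adjusted p = 0.000743, edgeR), though in *Setd1a*+/- libraries alone not with replicate 2 at E14 (-0.071), only without it (0.41, adjusted p = 0.00286), and from E18 to P7 (0.56, SE 0.131, adjusted p = 0.000199) and fell from P7 to P35 (-0.31, SE 0.131, adjusted p = 0.0322).

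**Figure D2:**
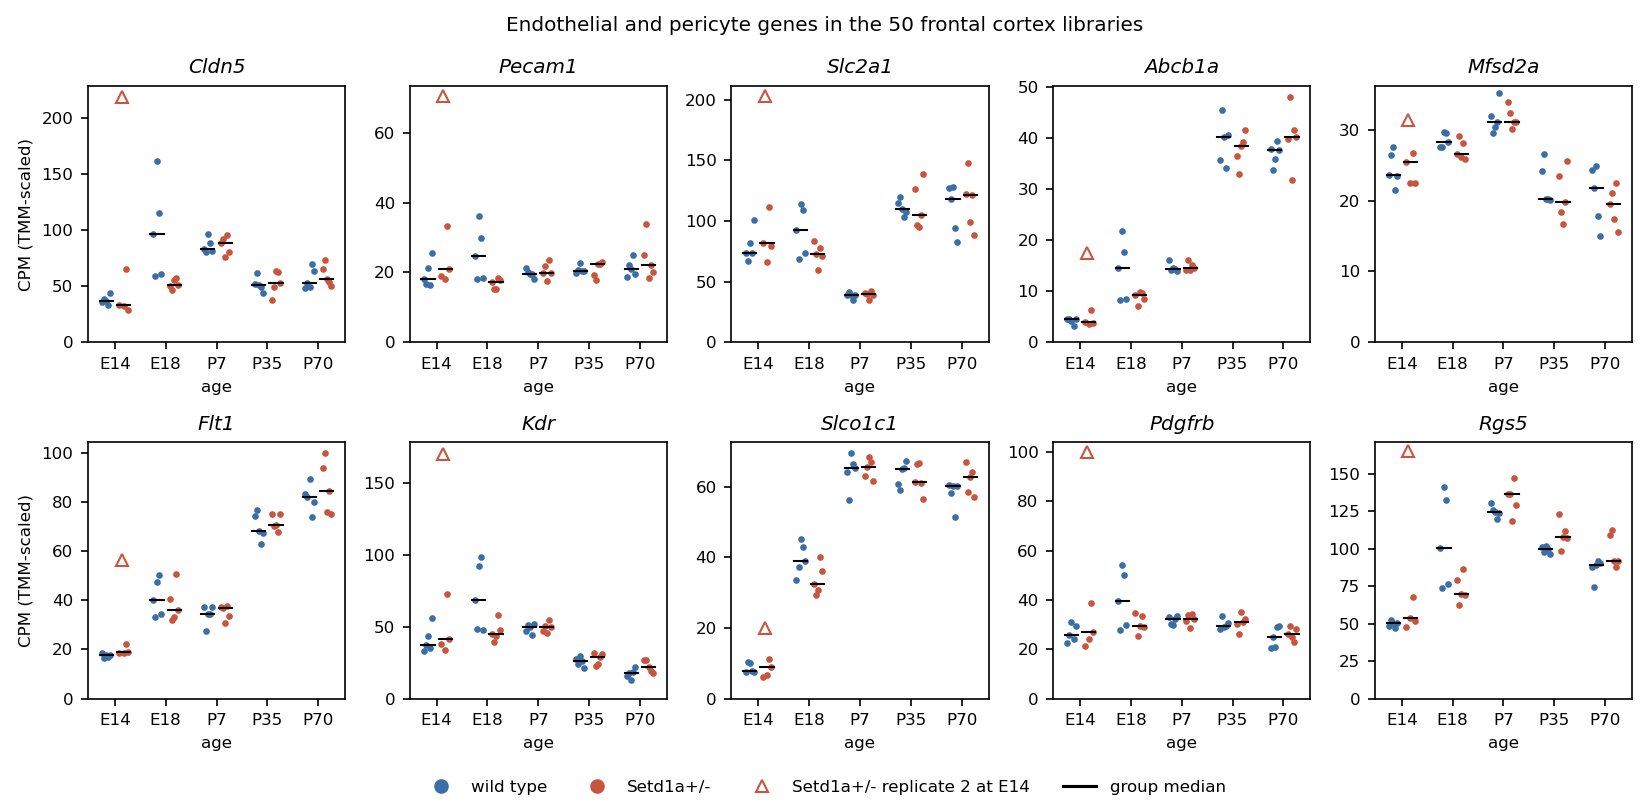
Level of each gene (CPM after TMM scaling, linear axes) in all 50 libraries by age. Dots are libraries, blue for wild-type and red for Setd1a+/-, the open triangle is Setd1a+/- replicate 2 at E14, and bars are group medians of 5. The triangle is the highest E14 point in each panel, and at E18 all wild-type dots lie above all Setd1a+/- dots for Cldn5 alone.

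The step from E14 to E18 was also fitted in each genotype and without the library that stood apart. In wild-type libraries alone, 7 of the 10 genes were called from E14 to E18, against 65.9% of all genes, and all 7 rose, *Cldn5* by 1.39 (SE 0.307, adjusted p = 0.000121, edgeR), *Rgs5* by 1.08 and *Kdr* by 0.79. In *Setd1a*+/- libraries alone, which hold that library, 5 were called, against 64.5% of all genes, with *Flt1* and *Slco1c1* higher at E18 and *Pecam1* (-0.95), *Slc2a1* (-0.57) and *Kdr* (-0.60) lower. Without that library, 5 were also called in *Setd1a*+/- libraries alone, against 64.1% of all genes, with *Flt1*, *Slco1c1*, *Abcb1a* and *Rgs5* higher at E18 and *Pecam1* lower (-0.45), while *Slc2a1* (-0.22) and *Kdr* (0.014) were not called. When *Setd1a*+/- replicate 2 at E14 was left out, 8 genes were called over both genotypes, against 74.5% of all genes, all higher at E18, with *Cldn5* at 0.88 and *Kdr* at 0.40. The same omission, by narrowing the spread that all ages share, brought *Flt1* (0.24, adjusted p = 0.0222) and *Kdr* (-0.43, adjusted p = 0.0232) past the threshold from P35 to P70, against 10.6% of all genes, with unchanged folds. In each of these fits of the E14 to E18 step, the share of the 10 genes called was thus near that of all genes or below it. From E18 to P7, *Slco1c1* and *Slc2a1* were called in wild-type libraries alone, and *Rgs5*, *Mfsd2a* and *Abcb1a* were not. *Mfsd2a* was not called in *Setd1a*+/- libraries alone either. Library size scaling ended the calls of *Mfsd2a* and *Abcb1a* at that step, and RNA integrity as a covariate or leaving out the 2 libraries with *Xist* counts ended that of *Abcb1a*. Leaving out a single library also ended these calls, for *Mfsd2a* *Setd1a*+/- replicate 5 at E18 or, at P7, *Setd1a*+/- replicate 1 or wild-type replicate 5, and for *Abcb1a* replicate 2 or 5 of either genotype at E18 or, at P7, wild-type replicate 1 or *Setd1a*+/- replicate 2 or 4. From P7 to P35, 76.1% of all genes were called in the fit over both genotypes. In each genotype alone, *Cldn5*, *Slc2a1*, *Abcb1a*, *Mfsd2a*, *Flt1* and *Kdr* were called at that step. *Rgs5*, also called at that step with all libraries, is not in that list. With 1 library left out, 6 to 7 of the 10 genes were called there, beside 12295 to 12555 of all genes.

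Across all ages, with age as a covariate, none of the 10 genes was called for genotype, against 4.43% of all genes tested (723 of 16330), and none had an unadjusted p under 0.05, against 14.5%. The log2 fold changes of *Setd1a*+/- over wild-type ran from -0.04 (*Mfsd2a*, 95% interval -0.14 to 0.06) to 0.14 (*Kdr*, 95% interval -0.12 to 0.40), with standard errors of 0.0481 to 0.159 and adjusted p of 0.526 to 0.977. Their median was 0.06, against 0.00 over all genes tested. The widest 95% interval was that of *Cldn5*, -0.28 to 0.36. Of the 10 fold changes, 9 were above 0 with all libraries and 3 without *Setd1a*+/- replicate 2 at E14, when they ran from -0.14 to 0.04.

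The joint test of the 4 interaction terms, which asks whether the genotype effect differed by age, called 0 genes of the series (0%) and 0 of the 10. Its unadjusted p was under 0.05 for 6 of the 10, *Cldn5* (0.00196), *Rgs5* (0.00265), *Pecam1* (0.00310), *Kdr* (0.00609), *Abcb1a* (0.00685) and *Pdgfrb* (0.0309), against 6.72% of all genes, and the lowest adjusted p was 0.398. The genotype effects at E14 and E18, tested in 1 fit of the 10 groups, had opposite signs in each of the 10 genes.

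At E14 all 10 genes were higher in *Setd1a*+/- libraries, by 0.07 (*Mfsd2a*) to 1.01 (*Cldn5*, SE 0.306, adjusted p = 0.124, edgeR) on the log2 scale, with a median of 0.66 against -0.03 over all genes. None was called, against 0.129% of all genes, and 8 had an unadjusted p under 0.05, against 11.6%. These values rested on 1 library. Without *Setd1a*+/- replicate 2, the fold changes ran from -0.08 (*Slco1c1*) to 0.23 (*Pecam1*), 8 of the 10 were above 0 and none had an unadjusted p under 0.05. With replicate 2 kept and *Setd1a*+/- replicate 1 or replicate 3 left out instead, *Cldn5*, *Pecam1*, *Abcb1a*, *Flt1*, *Kdr*, *Pdgfrb* and *Rgs5* were called higher, against 2.61% and 2.38% of all genes.

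At E18 all 10 genes were lower in *Setd1a*+/- libraries, with a median log2 fold change of -0.45 against 0.02 over all genes, of which 44.3% were below 0. The difference was -0.92 for *Cldn5* (SE 0.303, 95% interval -1.53 to -0.31, adjusted p = 0.204, edgeR), -0.67 for *Abcb1a* (SE 0.244, adjusted p = 0.265), -0.60 for *Pecam1* and *Kdr* (adjusted p = 0.265 and 0.336), -0.51 for *Rgs5* (adjusted p = 0.265), -0.40 for *Pdgfrb*, -0.33 for *Slc2a1*, -0.23 for *Slco1c1*, -0.09 for *Flt1* and -0.07 for *Mfsd2a*. None passed the adjusted threshold, against 0.110% of all genes, and 5 had an unadjusted p under 0.05, against 11.4%. The 2 groups did not overlap for *Cldn5* alone, against 0.955% of all genes in that direction.

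The call at E18 depended on the libraries that set the spread. Without *Setd1a*+/- replicate 2 at E14, which holds no E18 RNA but enters the shared variance, the E18 fold changes were the same to 2 decimals and their standard errors smaller, and *Cldn5* (adjusted p = 0.0130, edgeR), *Rgs5* (0.0169), *Abcb1a* (0.0298) and *Pecam1* (0.0446) were called lower, against 0.713% of all genes. In a fit of the 10 E18 libraries alone, 0 of the 10 were called, against 0% of all genes, 8 had an unadjusted p under 0.05, against 11.9%, and the lowest adjusted p was 0.265. The fit of 1 age alone was added after the data were seen. With the RNA integrity number of each library as a covariate, the fold changes ran from -0.82 (*Cldn5*) to 0.01 (*Flt1*) and 0 were called. RNA integrity, as the study lists it, was lower in most *Setd1a*+/- than wild-type libraries at E18, and its part beyond this fit was not tested.

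**Figure D3:**
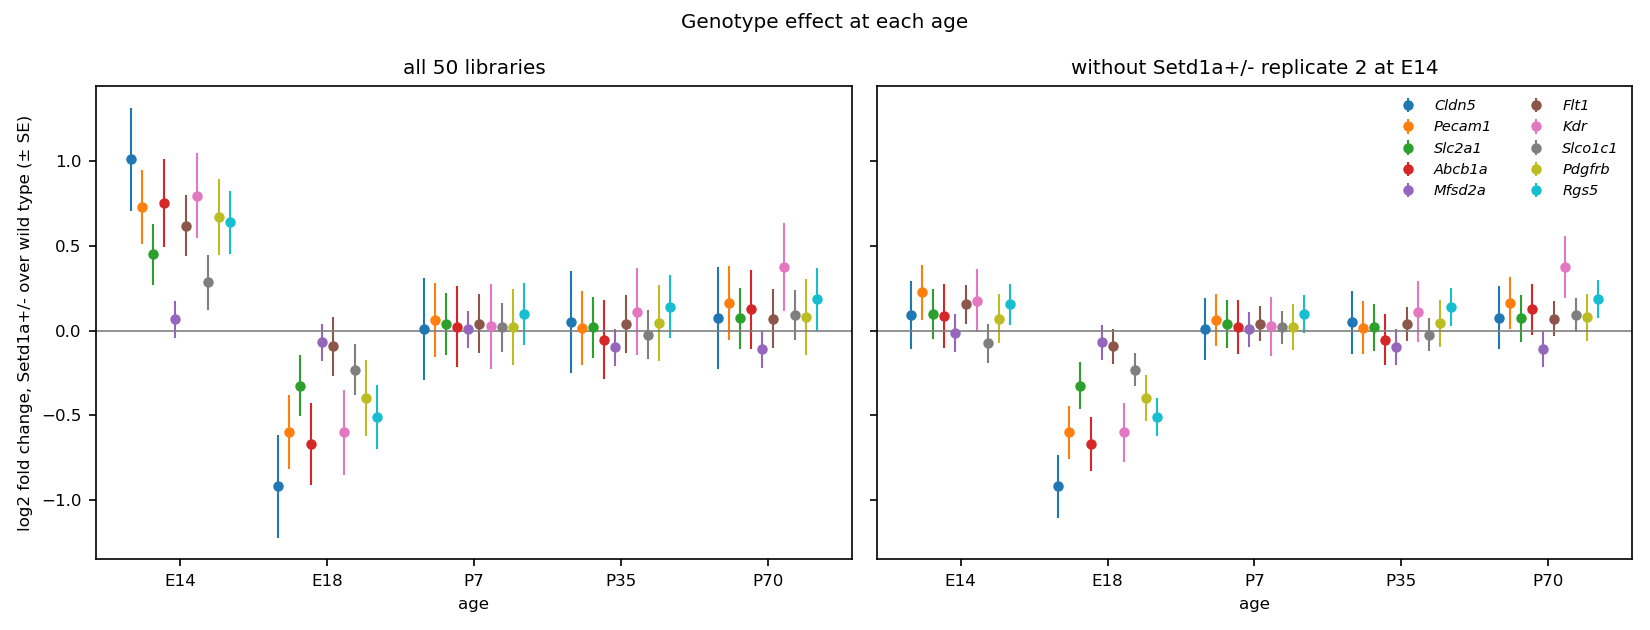
Log2 fold change of Setd1a+/- over wild-type at each age for the 10 genes, with all 50 libraries (left) and without Setd1a+/- replicate 2 at E14 (right). Points are edgeR estimates and bars are ±1 standard error. The E14 points run from 0.07 to 1.01 on the left and from -0.08 to 0.23 on the right, the E18 points lie below 0 in both, and the postnatal points lie between -0.11 and 0.37.

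After birth the genotypes differed little. No member was called at P7, P35 or P70, against 0.735%, 0% and 0.233% of all genes, and none had an unadjusted p under 0.05 with all libraries. *Kdr* had, without *Setd1a*+/- replicate 2 at E14, an unadjusted p of 0.0466 at P70 (adjusted p = 0.706, edgeR). The log2 fold changes ran from 0.01 to 0.10 at P7, from -0.10 to 0.14 at P35 and from -0.11 to 0.37 at P70. The value of 0.37 belonged to *Kdr* (SE 0.261, 95% interval -0.15 to 0.90), which at P70 had 15.8, 17.6, 12.7, 18.2 and 22.2 CPM in wild-type and 26.5, 26.8, 21.7, 19.3 and 17.9 CPM in *Setd1a*+/- libraries, and 2 mutant libraries exceeded all wild-type libraries.

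Summed over the 10 genes, *Setd1a*+/- replicate 2 at E14 held 1053 CPM, against 278 to 456 CPM in the other 9 libraries of that age. Each of the 10 genes was higher in it than in any of those 9, at 1.33 (*Mfsd2a*) to 6.09 (*Cldn5*) times their median. Of all 16330 genes tested, 2388 (14.6%) were highest in that library and 3814 were lowest in it, so it stood apart far beyond the vessel genes. Markers of other cells moved with the 10 genes. All 25 of 25 other endothelial genes, 12 of 13 other pericyte genes, 7 of 8 basement membrane genes, 5 of 7 smooth muscle genes and 8 of 10 fibroblast and meninges genes were highest there, and the summed level of the last list was 1631 CPM against 16.5 to 555. So were 8 of 9 genes of microglia and blood cells, which summed to 101 CPM against 44.1 to 64.2, but only 1 of 9 erythroid genes, which summed to 812 CPM against 295 to 1317. Of 9 astrocyte genes, 3 were highest there, with a sum of 535 CPM against 419.9 to 522 in the other 9. Of 7 choroid plexus genes and 6 neuronal genes, 0 were highest there, and the 7 choroid plexus genes summed to 16.5 CPM against 13.1 to 508 in the other 9. What part these other cells had in the high values was not tested.

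At E18 the wild-type libraries split in the same genes. The 10 genes summed to 538, 402, 743, 675 and 416 CPM in wild-type replicates 1 to 5 and to 418, 360, 373, 461 and 392 CPM in *Setd1a*+/- replicates 1 to 5. Wild-type replicates 1, 3 and 4 exceeded all mutant libraries and replicates 2 and 5 lay within their range. The 10 fibroblast and meninges genes summed to 849, 332, 720, 656 and 79.9 CPM in the wild-type and 460, 377, 536, 291 and 303 CPM in the mutant libraries, with the same 3 wild-type libraries highest. Basement membrane and smooth muscle genes followed, at 1101 to 1415 and 29.3 to 53.0 CPM in those 3 libraries and 490 to 772 and 12.2 to 17.96 CPM in the other 7, and the choroid plexus genes stood at 247 and 214 CPM in wild-type replicates 3 and 4 and at most 17.1 CPM in the other 8. For the genotype effect at E18, an unadjusted p under 0.05 was found for 4 of 7 smooth muscle, 3 of 7 choroid plexus, 2 of 8 basement membrane and 0 of 10 fibroblast and meninges genes, against 11.4% of all genes. The basement membrane count was 7 of 8 without *Setd1a*+/- replicate 2 at E14. That count cannot be set against the 11.4%, which belongs to the fit of all libraries. Leaving that library out also raised the E18 calls at an adjusted p under 0.05 over all genes from 18 to 151 (edgeR). The part of these other tissues in the lower vessel genes at E18 was not tested.

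**Figure D4:**
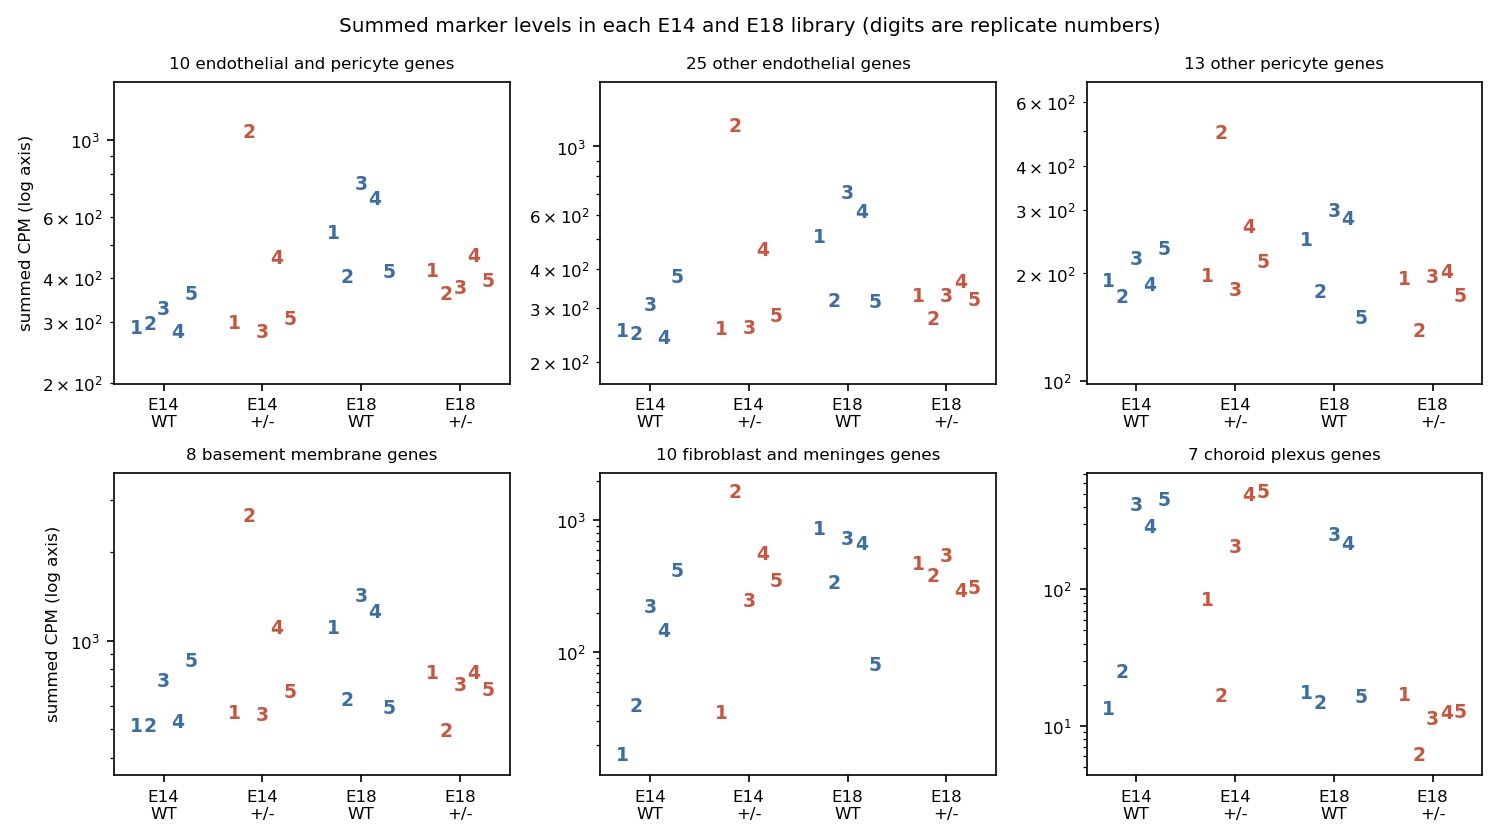
Summed level (CPM, log axes) of 6 gene lists in each E14 and E18 library, in blue for wild-type and red for Setd1a+/-, with digits giving the replicate number. Setd1a+/- replicate 2 is the highest E14 library in each panel but that of choroid plexus genes, where it stands at 16.5, and wild-type replicates 1, 3 and 4 are the highest E18 libraries for vessel, basement membrane and fibroblast genes.

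Companion genes of the vessel wall, taken from lists drawn up beside the 10, were described in the same way. At E18, all 25 other endothelial genes, such as the junction cadherin *Cdh5* and the angiopoietin receptor *Tek*, were lower in *Setd1a*+/- libraries (median -0.59), 18 with an unadjusted p under 0.05 (11.4% of all genes) and 0 called (0.110% of all genes), and 11 were called without *Setd1a*+/- replicate 2 at E14 (0.713% of all genes called lower). All 13 other pericyte genes (median -0.43, 0 called), all 8 basement membrane genes (-0.43, 0 called), all 7 smooth muscle genes (-0.74, 0 called) and all 5 genes of fenestrae and caveolae (-0.49, 0 called) were lower as well. Of 21 other barrier junction and transporter genes 16 were lower and 1 was called, of 16 VEGF, angiopoietin and sprouting genes 11 were lower with 1 called in each direction, and of 13 Wnt barrier pathway genes 11 were lower with 0 called. Without *Setd1a*+/- replicate 2 at E14, the barrier list had 6 called lower (*Ocln*, *Lsr*, *F11r*, *Slc38a5*, *Slco2b1* and *Foxf2*), the VEGF list 2 lower (*Nrp1* and *Aplnr*), the Wnt list 1 lower (*Lef1*) and the choroid plexus list 1 lower (*Folr1*), beside the same 0.713% of all genes. *Vegfa* was called higher, beside 0.207% of all genes called in that direction. The lists of 6 neuronal and 9 astrocyte genes had medians of 0.06 and -0.02, against 0.02 over all genes, with 0 called in either. Of 9 genes of microglia and blood cells 8 were lower (median -0.13), of 9 erythroid genes 8 (-0.51), of 7 choroid plexus genes all 7 (-1.33) and of 10 fibroblast and meninges genes 9 (-0.41), with 0 called in these 4 lists when all libraries were used.

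Across ages, 1 companion gene over all 14 lists was called for genotype, a smaller share than the 4.43% of all genes. There were 2 without *Setd1a*+/- replicate 2 at E14, *Vegfa* and *Itga2b* of the microglia and blood list (4.37% of all genes). *Vegfa*, the ligand of *Kdr* and *Flt1* that neural cells make, was higher in *Setd1a*+/- libraries by 0.15 on the log2 scale (SE 0.0418, adjusted p = 0.0199, edgeR), and its adjusted p stayed between 0.00688 and 0.0396 in 59 alternatives. At E18 *Vegfa* had 103.7, 135.9, 114.9, 137.5 and 114.5 CPM in wild-type and 142.4, 148.4, 160.002, 187.1 and 159.5 CPM in *Setd1a*+/- libraries, and all mutant libraries exceeded all wild-type libraries (log2 fold change 0.39, SE 0.0817, adjusted p = 0.0275), as they did for 1.26% of all genes tested. Its effect at each of the other 4 ages was not called, with log2 fold changes of 0.28 at E14 (adjusted p = 0.117), 0.019 at P7, 0.043 at P35 and 0.024 at P70. At E14 the wild-type libraries held 69.0 to 88.2 CPM and the mutant libraries 84.9 to 110.7 CPM.

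At E18, a receptor and a carrier of endothelium were called lower. *Aplnr*, the apelin receptor of sprouting and venous endothelium, had 29.6, 12.6, 61.4, 40.2 and 12.5 CPM in wild-type and 6.98, 7.58, 8.56, 7.70 and 7.45 CPM in *Setd1a*+/- libraries (log2 fold change -2.03, SE 0.384, adjusted p = 0.0124, edgeR). *Slc38a5*, a glutamine carrier of brain endothelium, had 17.2, 8.43, 30.8, 21.1 and 10.7 CPM in wild-type and 5.37, 7.86, 6.88, 6.22 and 6.81 CPM in *Setd1a*+/- libraries (-1.42, SE 0.314, adjusted p = 0.0445). The groups did not overlap for either gene, as for 0.955% of all genes in that direction, and wild-type replicates 1, 3 and 4 were again the highest 3. In the E18 libraries alone, the adjusted p was 0.223 for *Aplnr*, 0.223 for *Slc38a5* and 0.261 for *Vegfa*, and with RNA integrity as a covariate it was 0.409, 0.359 and 0.141. With the replicate number as a block it was 0.0630 for *Aplnr*, 0.0843 for *Slc38a5* and 0.0263 for *Vegfa*. The *Slc38a5* call was lost in 39 of 60 alternatives, that of *Aplnr* in 5 and that of *Vegfa* at E18 in 6. In the choroid plexus list, *Ttr* (-9.27, adjusted p = 0.0435) and *Otx2* (-3.31, adjusted p = 0.0332) were called lower at P7, and both rested on wild-type replicate 2, without which their fold changes were 0.22 and 0.024.

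Over age, with all 50 libraries, the vessel lists held genes that rose and genes that fell. Of 21 other barrier junction and transporter genes, 7 rose and 4 fell from E14 to E18, 13 rose and 0 fell from E18 to P7, 8 rose and 8 fell from P7 to P35 and 3 fell from P35 to P70. Of 25 other endothelial genes, 6 rose and 2 fell, 4 rose and 1 fell, 7 rose and 5 fell and 0 changed at the successive steps. The 13 other pericyte genes turned from 7 higher and 2 lower at the first step to 2 higher and 6 lower from P7 to P35, and the 16 genes of VEGF, angiopoietin and sprouting from 6 higher and 2 lower to 3 higher and 8 lower. These counts stand beside the 73.4%, 76.1%, 76.1% and 9.74% of all genes called. Without *Setd1a*+/- replicate 2 at E14, the other endothelial genes had 15 higher and 1 lower from E14 to E18 and 10 higher and 2 lower from E18 to P7, the pericyte genes 9 higher and 2 lower at the first step, and the barrier genes 9 higher and 4 lower. Without that library, 74.5% of all genes were called from E14 to E18 and 12556 of 16408 from E18 to P7.

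Among other endothelial genes, *Ly6a* and *Ly6c1*, surface antigens of mature brain endothelium, rose from means of 0.0822 and 0.382 CPM at E14 (0.0408 and 0.245 without *Setd1a*+/- replicate 2) to 21.3 and 34.1 CPM at P70, and *Slco1a4*, an organic anion carrier of the barrier, rose from 1.43 to 41.3 CPM. *Aplnr* went from 27.5 CPM at E14 (19.1 without that library) to 0.482 CPM at P70, a difference of -5.80 on the log2 scale (-5.37 without it). From P7 to P35, where 76.1% of all genes were called, 7 of 8 basement membrane genes fell, with *Nid2* at 50.7 CPM at E14 (37.9 without that library) and 4.42 CPM at P70 (-3.43), whereas 5 of 7 smooth muscle genes rose over that step, with *Myh11*, the smooth muscle myosin heavy chain, at 0.719 CPM at E14 (0.471 without it) and 17.2 CPM at P70 (4.68). The P70 level of smooth muscle genes leaned on 2 libraries, wild-type replicate 4 and *Setd1a*+/- replicate 2, in which the 7 genes summed to 195.5 and 230.2 CPM against 41.7 to 69.4 in the other 8. Of the Wnt barrier pathway, *Wnt7b*, a neural ligand, fell from 173 to 46.1 CPM, and of the pericyte list *Notch3* fell from 96.0 to 22.3 CPM. In *Setd1a*+/- replicate 2 at E14, *Notch3* stood at 1.14 times the median of the other 9 libraries. That was the lowest ratio of the 13 other pericyte genes, whose median ratio was 2.53. Which cells held the *Notch3* RNA was not tested. Astrocytes, which share *Slc2a1* and *Slco1c1* with endothelium, also changed over the same ages, with 7 of 9 listed genes rising and 2 falling from E14 to E18 (73.4% of all genes called), 9 rising from E18 to P7 (76.1%) and 5 rising and 2 falling from P7 to P35 (76.1%). The water channel gene *Aqp4* had 1.27 CPM at E14, 148.1 CPM at P7 and 98.2 CPM at P70, and their part in the age steps of those genes was not tested.

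Within groups, the 10 genes varied together before birth and less so after it. On log2 CPM centred on the mean of each of the 10 groups, the 45 pairs of genes had a median Pearson r of 0.80 over the 50 libraries (lowest 0.19, highest 0.92), and of 0.59 (-0.06 to 0.83) without *Setd1a*+/- replicate 2 at E14. These values are descriptions, since all genes of a library share its depth and dissection. By age, the median r was 0.93 at E14 (0.74 without that library) and 0.82 at E18, and over the 3 postnatal ages in order it was 0.40, 0.18 and 0.31. *Mfsd2a* moved least with the others, with a median r of 0.32, and *Slco1c1* came next at 0.70, or 0.15 and 0.34 without that library.

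**Figure D5:**
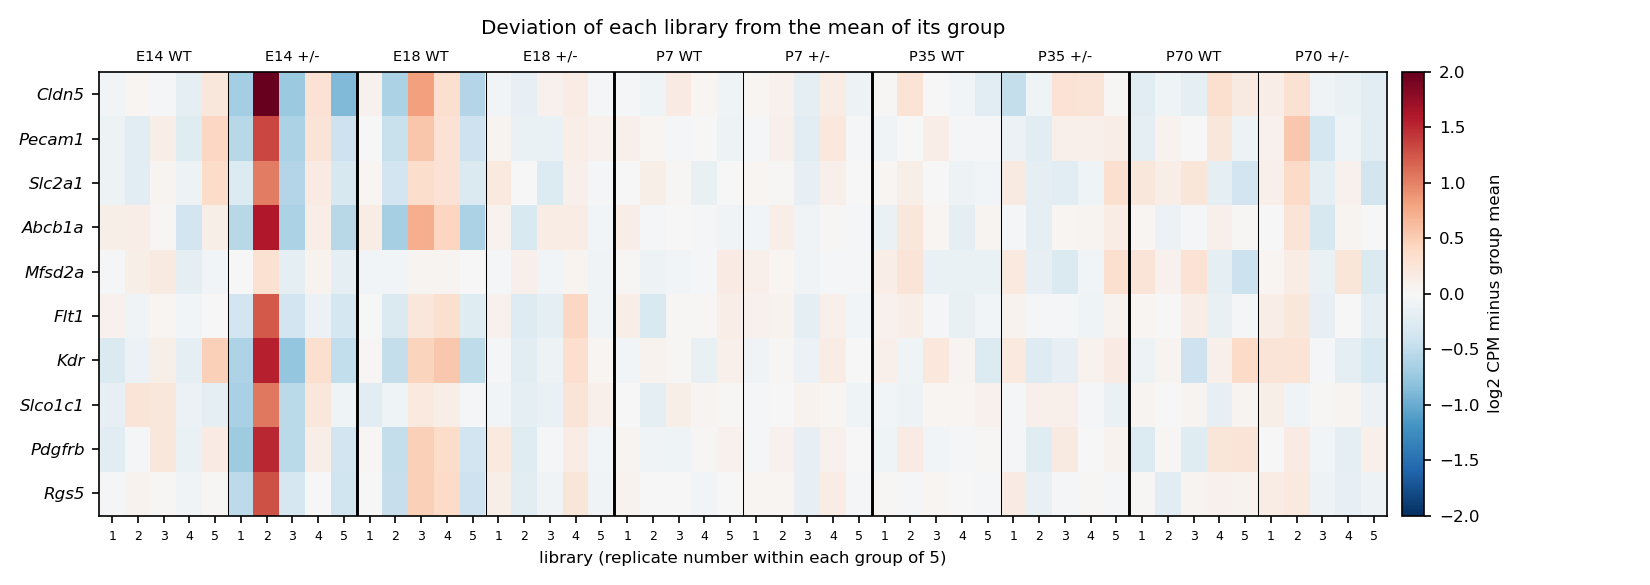
Deviation of each library from the mean of its own group of 5 (log2 CPM, colour scale from -2 to 2) for the 10 genes. Rows are genes and columns are libraries in order of age, genotype and replicate number. Setd1a+/- replicate 2 at E14 is red in each row (up to 2.02, in Cldn5), wild-type replicates 2 and 5 at E18 are blue and replicates 3 and 4 red in most rows, and the postnatal columns are pale.

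*Cldn5* was set against each of the other 9 genes over the 50 libraries, with permutations within groups and adjustment over the 9 relations. The relation was closest for *Abcb1a* (Pearson r = 0.92, Spearman rho = 0.73), *Pdgfrb* (0.92 and 0.75) and *Pecam1* (0.91 and 0.78), each with a permutation p of 1e-05, the smallest 100000 permutations can give, and an adjusted p of 3e-05. It was weakest for *Mfsd2a* (r = 0.24, rho = 0.13, permutation p = 0.151 and 0.439). Without the 2 libraries farthest from the median of *Cldn5*, both *Setd1a*+/- at E14, r was 0.84 for *Abcb1a*, *Pdgfrb* and *Pecam1*. Without *Setd1a*+/- replicate 2 at E14 alone, r was 0.82 for *Abcb1a*, 0.81 for *Pecam1* and 0.79 for *Pdgfrb*. It was then 0.74 for *Rgs5*, 0.73 for *Kdr*, 0.53 for *Flt1* and 0.45 for *Slc2a1*. For *Slco1c1* it went from 0.72 to 0.34 (unadjusted permutation p = 0.113), and for *Mfsd2a* it was 0.03. Within ages, with all libraries kept, Pearson r of *Cldn5* with *Pecam1* was 0.96 in both embryonic ages. It was 0.63, 0.53 and 0.72 in the successive postnatal ages. For *Slc2a1* it was 0.94 and 0.82 before birth and 0.37, -0.28 and -0.05 after it. For other genes r was also lower after birth than before it, with 0.40, 0.40 and 0.46 at P7, P35 and P70 for *Abcb1a*, and it was below 0 at P35 for *Kdr* (-0.16), *Slco1c1* (-0.16), *Mfsd2a* (-0.13) and *Rgs5* (-0.37) and at P70 for *Slco1c1* (-0.34) and *Mfsd2a* (-0.35). At P70 r was 0.82 for *Kdr*, 0.77 for *Pdgfrb* and 0.66 for *Rgs5*, and at P7 it was 0.63 for *Rgs5*.

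Among all genes tested, the nearest to *Cldn5* over the 50 libraries were *Tie1* (r = 0.93), an endothelial receptor, *Abcb1a* and *Pdgfrb*. *Tie1* was also nearest to *Pecam1* (0.94), *Epas1* to *Abcb1a* (0.94), *Flt1* (0.91) and *Rgs5* (0.93), *Robo4* to *Kdr* (0.93), *Notch4* to *Slc2a1* (0.89), *Ets1* to *Slco1c1* (0.80) and *Slc40a1* to *Pdgfrb* (0.94). Of the 20 nearest genes, between 11 and 13 were among the 10 or in the vessel lists for *Cldn5*, *Pecam1*, *Abcb1a*, *Flt1*, *Kdr*, *Pdgfrb* and *Rgs5*, 7 for *Slc2a1* and 5 for *Slco1c1*. *Mfsd2a* had 1 such gene, and its nearest were *Apba3* (0.69), *Tsc22d3* (0.68) and *Adipor2* (0.68). Without *Setd1a*+/- replicate 2 at E14 the counts were 10 to 12 for the first 7 genes, 5 for *Slc2a1* and 1 each for *Slco1c1* and *Mfsd2a*. The nearest gene then became *Fkbp5* for *Mfsd2a* (0.75), *Mmrn2* for *Pecam1* (0.88), *Kcns3* for *Slco1c1* (0.68), *Tie1* for *Abcb1a* (0.87) and *Abcb1a* for *Rgs5* (0.83). By Spearman rho over the 50 libraries, the counts were 6 for *Abcb1a* and 10 to 13 for the rest of the first 7 genes. They were 6 for *Slc2a1*, 3 for *Mfsd2a* and 1 for *Slco1c1*, and the gene nearest to *Cldn5* was *Slc40a1* (rho = 0.85).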

How the data were processed

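RNA of 50 mouse frontal cortex libraries was captured by poly-A tail and sequenced paired-end in 1 batch. The authors trimmed reads (Trimmomatic), aligned them (STAR) and deposited counts of fragments per gene, made, per the file headers, with featureCounts 1.4.6-p2 on Ensembl GRCm38 release 102 without strand, a fragment over several genes counted for each. Their values are raw counts, with 0 columns of samples outside the labels.

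Here the 16330 protein-coding genes (GENCODE vM21) passing edgeR's filterByExpr (minimum count 10) were scaled by TMM. Groups of 5 by age and genotype came from the labels. Tests were edgeR 4.0.16 quasi-likelihood tests (R 4.3.3), two-sided, Benjamini-Hochberg adjusted over all genes tested, with a call at adjusted p under 0.05. The genotype effect was fitted with age as a covariate and the interaction with 4 terms. Effects at 1 age and age steps came from 1 fit of all 10 groups, which share 1 spread. Log2 CPM used a prior count of 2, and RPKM divided CPM by annotated exonic length. Relations with *Cldn5* used 100000 permutations within groups. P-values set group differences against the spread between libraries of 1 study, which holds counting error as well as differences between mice.

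All 10 genes are named. Of each of 14 companion lists (158 genes: other endothelial, barrier junctions and transporters, fenestrae and caveolae, VEGF and sprouting, Wnt barrier pathway, other pericyte, smooth muscle, basement membrane, fibroblast and meninges, astrocyte, choroid plexus, erythroid, microglia and blood, neuron), genes called for genotype and up to 4 called with the largest difference between P70 and E14 could be named, and the nearest 3 genes of each of the 10. The members and lists were chosen with earlier results of these data known, so their values give no independent support to those results. The fits were tested on simulated data. Alternatives were DESeq2 1.42.0, limma-voom (limma 3.58.1), library size scaling, no filter, covariates, a replicate block and leaving out each library.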

Additional observations from a re-analysis of the deposited data

Results flagged for a closer look

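Within each group of 5 libraries, each gene's highest and lowest values were compared with the gap to the next value over the group's range, against Dixon's critical value of 0.71. Of 100 groups (10 genes, 5 ages, 2 genotypes), 9 held a library that stood apart, where chance alone marks about 1 in 20 groups.

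Of the 9, 6 were *Setd1a*+/- replicate 2 at E14, each time as the highest library, and they are 1 observation, since they come from 1 library. It held 219 CPM of *Cldn5* (29.2 to 65.5 in the other 4), 17.5 of *Abcb1a* (3.68 to 6.32), 56.4 of *Flt1* (18.4 to 22.2), 170.1 of *Kdr* (33.8 to 72.5), 99.9 of *Pdgfrb* (21.4 to 38.7) and 165 of *Rgs5* (47.6 to 67.6). The other 3 were the lowest of their groups, with *Abcb1a* at 3.17 CPM in wild-type replicate 4 at E14 (4.21 to 4.55 in the other 4), *Slco1c1* at 51.5 CPM in wild-type replicate 4 at P70 (58.1 to 60.5) and *Rgs5* at 74.6 CPM in wild-type replicate 2 at P70 (87.6 to 91.7).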

How the results depend on the processing

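The precision is limited by 5 mice per group and by counting error, from 117 counts of a gene in a library upward, whose shares were not separated. Of 6070 values of the 10 genes under alternatives, 5987 kept their side of the threshold (87 uncalled ones changed sign), 57 became called, 25 lost a call and 1 reversed, *Rgs5* from E14 to E18 in *Setd1a*+/- libraries alone (-0.071). That reversal rested on replicate 2 at E14, and without it, an alternative chosen after seeing the data, the value was 0.41.

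At E14, 4 of the 10 genes were called without the 2 libraries high in *Xist* (4.85% of all genes), and 0 to 7 when single libraries were left out, with 7 without *Setd1a*+/- replicate 1 or 3 (2.61% and 2.38% of all genes), 4 without replicate 5 (0.908%) and 2 without wild-type replicate 5 (4.55%). At E18, 0 to 4 were called when single libraries were left out, with 4 without *Setd1a*+/- replicate 2 at E14. The cause was not tested, except that leaving out *Setd1a*+/- replicate 2 at E14 narrowed the shared spread. From E14 to E18, 4 genes were called with all libraries, 7 in wild-type alone (65.9% of all genes) and 4 to 8 with 1 library left out (11802 to 12220 of all genes). From E18 to P7, 5 were called, against 2 in wild-type alone (67.3% of all genes), 3 under library size scaling (76.1%) and 3 to 6 with 1 library left out (3 without *Setd1a*+/- replicate 5 at E18, 74.8%, and 6 without replicate 2 at E14, 76.5%). From P7 to P35 the range was 6 to 7 and from P35 to P70 it was 0 to 2. For genotype overall and the interaction, 0 were called in each alternative.

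Over all genes, calls with 1 library left out ranged from 1 to 747 at E14 (21 with all, 747 without wild-type replicate 5), 7 to 151 at E18 (18), 7 to 212 at P7 (120), 0 to 5 at P35 (0), 7 to 92 at P70 (38) and 637 to 787 for genotype (723). Library size scaling moved the calls from P35 to P70 from 816 higher and 775 lower to 668 and 1074. At P7 *Ttr* ranged from -10.1 to 0.22 and *Otx2* from -3.63 to 0.024 with 1 library left out, both highest without wild-type replicate 2.

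Replicate numbers marked no shared litter or day in the labels, and 9 of 25 same-number pairs correlated above 0.1 (median 0.064, against -0.028 for other pairs), so the numbers were not taken to pair the libraries. With a replicate block, 0 of the 10 genes were called for genotype at any age, and 5, 5, 7 and 0 at the 4 age steps (73.5%, 76.2%, 76.1% and 10.3% of all genes), against 4, 5, 7 and 0 without it, and *Aplnr* and *Slc38a5* at E18 had adjusted p of 0.0630 and 0.0843. Of 50 libraries, 17 correlated best with the library of their own number, a hint from the data and not from the design. The count that chance alone would give was not worked out.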
